A study of Mus musculus with 42 samples.

Results

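The IL-6 and IL-11 cytokine family was followed through 9 genes in mouse lung mesenchymal cells: the ligands Il6, Il11 and Lif, the receptor chains Osmr, Il6st, Il11ra1 and Lifr, the transcription factor Stat3 and the feedback inhibitor Socs3. The genes were taken by symbol, and each was found once in both RNA tables, among 26323 named genes in the CD1 table and 35972 in the C57BL/6 table. All 9 passed the filter on low values in both tables. In the lists of accessible chromatin regions that differed between groups, 152 of 156984 entries were assigned to these genes.

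IL-6, IL-11, LIF and oncostatin M are small secreted proteins that each bind a receptor made of a cytokine-specific chain and a shared signalling chain, gp130, encoded by Il6st. The joined receptor activates JAK kinases, which phosphorylate STAT3, and STAT3 induces Socs3, whose product binds gp130 and shuts the signal down. In the lung, fibroblasts both make these cytokines and respond to them, and IL-6 and IL-11 have been studied as mediators of inflammation and fibrosis.

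RNA-seq and ATAC-seq, in which a transposase cuts accessible DNA, were run on sorted cells of 2 mouse strains, 21 libraries per assay. In CD1 mice with a Col1a1-GFP reporter, GFP+ cells lacking CD45, EpCAM and CD31 were grown for 5 days in DMEM with 10% FBS on collagen-coated silicone (PDMS) gels of 32 kPa or 0.2 kPa, or were taken directly from the lungs of sham mice, with 3 libraries per assay in each group. In C57BL/6 mice, cells lineage-traced through Col1a2 and lacking CD45 and EpCAM were sorted on day 14 and day 56 after bleomycin, an antitumour agent used to bring on lung injury and fibrosis, or from sham mice, with 4 libraries per assay in each group. Reporter and lineage label both depend on a collagen promoter, so cells in which it was inactive were not sampled. Sorted cells had passed through a 45 min tissue digestion, whereas the cells on gels had a further 5 days in serum, so gel, serum, time and digestion cannot be told apart in a comparison of cultured with sham cells. The labels number the replicates without saying which came from separate animals or cultures, and p-values therefore reflect sample-to-sample spread that may be only technical.

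Reads per library ranged from 34313376 to 67721210 in CD1 and from 14288605 to 51288435 in C57BL/6. Levels of a gene are given as CPM, its reads scaled to the same fixed total of recovered reads in every library, and levels of different genes are compared only as RPKM, CPM divided by the length of its merged exons in kb. Sham replicates 1 and 2 and day 56 replicates 2 and 3 of C57BL/6 had 16563 to 17561 genes detected, against 19384 to 21381 in the other 8 libraries of that table, and calls that change without these 4 are given. Xist was expressed in all 9 CD1 libraries but, in C57BL/6, in 2 of 4 day 14, 4 of 4 day 56 and 1 of 4 sham libraries. Col1a1, Col1a2 and Pdgfra, defining genes of lung fibroblasts, were detected in every group, Pdgfra at 243 to 341 CPM on 32 kPa, 301 to 355 CPM on 0.2 kPa and 1193 to 1418 CPM in CD1 sham cells. The 8 fibroblast markers summed to 4302 to 4755 CPM on 32 kPa and 4530 to 5275 CPM on 0.2 kPa, against 33389 to 38641 CPM in CD1 sham cells. In C57BL/6 they summed to 37511 to 49552 CPM on day 14 and 23300 to 27142 CPM on day 56, against 26769 to 34916 CPM in sham cells. None of the 8 was without reads over a whole group. By the limma test used below, however, 7 of the 8 were lower on each gel than in sham cells. Of all tested genes 41% were lower on 32 kPa and 39.2% on 0.2 kPa. Inmt, named after its values were seen, averaged 0.404 CPM on 32 kPa and 0.0455 CPM on 0.2 kPa, against 1769 CPM in CD1 sham cells. The higher sum on day 14 did not hold for most of these markers. By the same test, 2 of the 8 were higher on day 14 than in sham cells and 5 were lower, beside 9.57% and 6.36% of all tested genes. The median log2 fold change of the 8 was -0.88. In these bulk samples fewer cells of a type and less RNA per cell cannot be told apart.

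The order of the family differed between cultured and sham cells, most of all in the places of Il11, Socs3 and Lif. Per exon length, Il11 was the most abundant of the 9 transcripts on both gels, at 78.8 RPKM on 32 kPa and 139 RPKM on 0.2 kPa, whereas it was the least abundant in CD1 sham cells at 0.912 RPKM. Lif came second on both gels, at 19.7 RPKM on 32 kPa and 23.1 RPKM on 0.2 kPa, ahead of Stat3 at 11.3 and 12.3 RPKM. In CD1 sham cells Socs3 led at 123 RPKM, followed by Il6st at 90.3 RPKM and Il11ra1 at 75.9 RPKM, and the ranges of the last pair overlapped. Il6 at 41.3 RPKM, Stat3 at 30.2 RPKM and Osmr at 21.4 RPKM formed the middle of the sham order without overlap between neighbours, above Lif at 9.19 RPKM and Lifr at 5.69 RPKM.

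All 9 genes differed between cultured and sham cells on each gel by the limma test across all genes with Benjamini-Hochberg adjustment at 0.05. In each case the cultured and sham libraries did not overlap. The share of all tested genes without such overlap was not counted, so the lack of overlap only describes the 9 genes. Il11 and Lif were higher and the other 7 genes lower. Calls were common: on 32 kPa 32.4% of 18480 tested genes were higher and 41% lower, and on 0.2 kPa 31.9% were higher and 39.2% lower. The median log2 fold change of the 9 genes was -2.92 on 32 kPa and -2.86 on 0.2 kPa, beside -0.26 and -0.22 over all genes tested. Both comparisons use the same sham libraries.

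**Figure D1:**
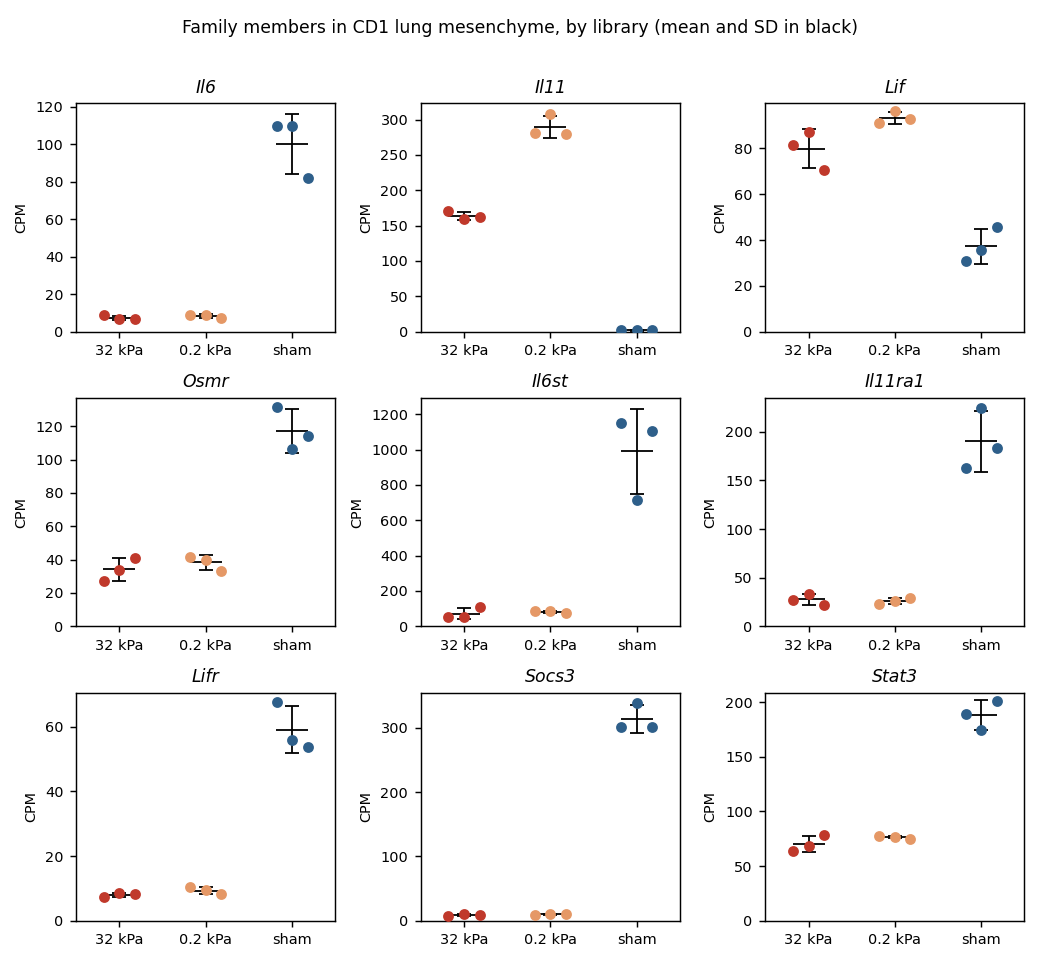
Level of each of the 9 genes in CPM (vertical axis) in every CD1 library, with 32 kPa, 0.2 kPa and sham from left to right in each panel. Points are libraries, and black marks are the mean and SD of 3. Il11 and Lif sit higher on both gels than in sham cells, and the other 7 genes sit lower, with no overlap between cultured and sham libraries.

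Il11, the ligand for IL-11 receptor alpha and gp130, gained most. It stood at 170.4, 159 and 162 CPM on 32 kPa, against 1.73, 1.62 and 2.34 CPM in sham cells. On 0.2 kPa it stood at 281, 308 and 279 CPM. The group means were 79.3 times the sham mean on 32 kPa and 133 times on 0.2 kPa, with log2 fold changes of 6.31 ± 0.14 (SE, limma adjusted p = 7.28e-11) and 7.06 ± 0.14 (limma adjusted p = 4.77e-11). Every library on a gel was far above every sham library, and the 0.2 kPa libraries were all above the 32 kPa libraries.

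Lif, whose product signals through LIFR and gp130, rose by less. It measured 81.7, 87.4 and 70.5 CPM on 32 kPa and 91.0, 96.4 and 92.9 CPM on 0.2 kPa, against 30.7, 35.5 and 45.6 CPM in sham cells. The log2 fold change was 0.99 ± 0.15 on 32 kPa (limma adjusted p = 0.000126) and 1.15 ± 0.15 on 0.2 kPa (limma adjusted p = 4.39e-05).

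Il6, the ligand for the IL-6 receptor and gp130, fell. It was 8.63, 6.83 and 6.57 CPM on 32 kPa and 8.86, 8.99 and 7.21 CPM on 0.2 kPa, against 109, 109.5 and 81.7 CPM in sham cells. The means on the gels were 6.74% and 7.26% of the sham mean, with log2 fold changes of -3.89 ± 0.17 on 32 kPa (limma adjusted p = 7.05e-09) and -3.77 ± 0.17 on 0.2 kPa (limma adjusted p = 9.50e-09). Cultured cells thus held more Il11 and Lif and less Il6 RNA than freshly sorted cells, so these ligands did not move together.

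The promoter of Il6 is shown because its motifs are those of the stress and inflammatory factors whose genes are described further on, and a region at a start of Il11 because its accessibility differed between groups. Sequences are from GRCm38.p6 (mm10), and the Il6 promoter runs from 250 bases before to 50 bases after the RefSeq start on the plus strand, chr5:30012864-30013163. The Il11 region, chr7:4778119-4778331, lies at -84 bases from an Il11 start by the authors' annotation and is printed on the plus strand, while the gene lies on the minus strand. Capitals mark, in order along the Il6 promoter, an AP-1 match (TGANTCA), a CRE match (TGACGTC, here on the other strand) and an NF-kB match (GGGANTTTC), and in the Il11 region an AP-1 match.
Il6 promoter: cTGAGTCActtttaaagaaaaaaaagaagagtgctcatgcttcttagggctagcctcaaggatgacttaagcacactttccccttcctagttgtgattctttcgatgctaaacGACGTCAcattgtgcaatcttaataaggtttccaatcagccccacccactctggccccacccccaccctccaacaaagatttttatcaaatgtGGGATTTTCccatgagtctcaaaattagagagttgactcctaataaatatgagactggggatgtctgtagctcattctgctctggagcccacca
Il11 promoter region: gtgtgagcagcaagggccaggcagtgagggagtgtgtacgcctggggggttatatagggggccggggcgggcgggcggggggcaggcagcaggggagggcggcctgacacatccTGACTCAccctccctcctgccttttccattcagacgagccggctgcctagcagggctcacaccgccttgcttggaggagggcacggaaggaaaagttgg

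Both strands were searched for these letters and for STAT (TTCNNNGAA) and TEAD (CATTCC) sites. Of 32851 RefSeq promoter windows of this length, 7.81% held the AP-1 letters, 3.21% the CRE letters and 1.11% the NF-kB letters. The AP-1 letters were in the promoters of 4 of the 9 genes (Il6, Il11, Lif and Osmr), and the CRE and NF-kB letters only in that of Il6. Of the 21413 windows of this length centred on the regions of the list the Il11 region comes from, 40.3% held the AP-1 letters. A match describes the sequence and is not evidence of binding.

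All 4 receptor chains fell on both gels. Il6st, which encodes gp130, had 51.6, 54.1 and 109 CPM on 32 kPa and 87.2, 83.7 and 73.5 CPM on 0.2 kPa, against 1152, 712 and 1108 CPM in sham cells. Its log2 fold change was -3.97 ± 0.26 on 32 kPa (limma adjusted p = 1.42e-07) and -3.77 ± 0.26 on 0.2 kPa (limma adjusted p = 2.27e-07). The third 32 kPa library was above the other two, yet remained far under the lowest sham library.

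Il11ra1, the receptor chain for IL-11, had 27.3, 32.8 and 22.2 CPM on 32 kPa and 22.9, 25.9 and 29.1 CPM on 0.2 kPa, against 163, 225 and 184 CPM in sham cells. Its log2 fold change was -2.92 ± 0.17 on 32 kPa (limma adjusted p = 7.99e-08) and -3.07 ± 0.17 on 0.2 kPa (limma adjusted p = 5.78e-08). The RNA of the ligand IL-11 and that of its receptor chain thus moved in opposite directions. Il11ra1 has a near-identical copy, Il11ra2, listed at a mean of 0.306, 0.0611 and 1.30 CPM on 32 kPa, on 0.2 kPa and in sham cells. The sources used here do not say how reads shared by the copies were counted, so both values are uncertain.

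Lifr, the LIF receptor chain, had 7.31, 8.52 and 8.29 CPM on 32 kPa and 10.3, 9.39 and 8.21 CPM on 0.2 kPa, against 67.5, 55.9 and 53.8 CPM in sham cells. Osmr, the oncostatin M receptor chain, had 27.4, 33.9 and 41.0 CPM on 32 kPa and 41.8, 40.0 and 33.1 CPM on 0.2 kPa, against 132, 106 and 114 CPM in sham cells. The log2 fold change of Lifr was -2.99 ± 0.13 on 32 kPa and -2.86 ± 0.13 on 0.2 kPa. That of Osmr was smaller, at -1.92 ± 0.14 on 32 kPa and -1.81 ± 0.14 on 0.2 kPa (limma adjusted p at most 7.69e-07 for both genes on both gels). Osmr kept 26.6% of its sham mean on 32 kPa and Lifr 12.5%.

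Socs3 lost most of the 9. It had 7.90, 9.98 and 8.29 CPM on 32 kPa and 9.01, 10.0 and 10.4 CPM on 0.2 kPa, against 301, 338 and 300.4 CPM in sham cells. Its means on the gels were 2.56% and 2.73% of the sham mean, with log2 fold changes of -5.29 ± 0.12 on 32 kPa (limma adjusted p = 1.01e-10) and -5.19 ± 0.12 on 0.2 kPa (limma adjusted p = 1.21e-10). Per exon length Socs3 led the family in sham cells, and on the gels it ranked near the bottom, at 3.42 RPKM on 32 kPa and 3.85 RPKM on 0.2 kPa. Stat3, the factor that induces it, had 63.9, 68.6 and 78.2 CPM on 32 kPa and 77.2, 76.7 and 75.1 CPM on 0.2 kPa, against 189, 174 and 201.1 CPM in sham cells. The log2 fold change of Stat3 was -1.55 ± 0.09 on 32 kPa (limma adjusted p = 8.08e-08) and -1.50 ± 0.09 on 0.2 kPa (limma adjusted p = 1.13e-07), the smallest of the 7 losses.

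The rest of the pathway was described from lists of genes, whose counts stand beside 41% lower and 32.4% higher of all tested genes on 32 kPa. On 0.2 kPa these shares were 39.2% and 31.9%. Of the 10 genes for JAK kinases and other STATs, all 10 fell on both gels, with median log2 fold changes of -1.56 on 32 kPa and -1.39 on 0.2 kPa. Of 6 other receptor chains and soluble partners, 5 fell (Il6ra, Il11ra2, Cntfr, Il27ra and Il31ra) and 1 rose on both gels. The 6 summed to 417 to 542 CPM on 32 kPa and 421 to 571 CPM on 0.2 kPa, against 60.1 to 67.0 CPM in sham cells. Clcf1, a ligand that signals through gp130 and the LIF receptor, rose to 29.4 ± 3.49 CPM on 32 kPa and 36.1 ± 6.88 CPM on 0.2 kPa, against 1.82 ± 0.345 CPM in sham cells (SD, n = 3 each), and was the only higher one of the 6 other ligands tested, of which Osm and Ebi3 were lower. Il6ra, the IL-6 receptor chain, fell by 4.85 on the log2 scale on 32 kPa (limma adjusted p = 1.01e-05) and by 3.91 on 0.2 kPa (limma adjusted p = 5.89e-05). Osm, the gene of oncostatin M, had 1 read over the 32 kPa libraries and 0 over the 0.2 kPa libraries, against 88 over the sham libraries.

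Genes known as STAT3 targets were more often lower than higher in culture, as were all tested genes (41% lower and 32.4% higher on 32 kPa, 39.2% and 31.9% on 0.2 kPa). Of 28 tested, 17 were lower and 7 higher on 32 kPa, and 18 were lower and 8 higher on 0.2 kPa, with medians of -1.45 and -1.78 on the log2 scale. The largest changes were in Fos, a subunit of AP-1, which fell by 9.58 on 32 kPa and by 9.51 on 0.2 kPa, and in Cp, the gene of ceruloplasmin, which fell by 8.49 and by 7.64. The list also holds genes that rose, such as Timp1, a metalloproteinase inhibitor chosen here after its values were seen, at 3782 ± 585 CPM on 32 kPa and 3651 ± 26.8 CPM on 0.2 kPa, against 90.9 ± 11.3 CPM in sham cells (SD, n = 3 each). Cebpd, an acute-phase transcription factor, fell by 1.50 on 32 kPa and by 2.13 on 0.2 kPa. Cebpb had log2 fold changes of 0.77 (limma adjusted p = 0.0944) and 0.19 (limma adjusted p = 0.674) and was not called. The other feedback inhibitors and phosphatases, 13 genes, included more higher than lower genes, with 6 higher and 3 lower on 32 kPa and 5 higher and 4 lower on 0.2 kPa. The highest was Socs6, which rose by 1.37 on 32 kPa and by 1.28 on 0.2 kPa, and the lowest Ptpn6, a phosphatase typical of leukocytes, which fell by 3.14 on 32 kPa and fell by 2.80 on 0.2 kPa. Socs2, Socs5, Ptpn2 and Ptpn11 rose on both gels, Cish rose on 32 kPa, and Pias1 and Pias3 fell on both (these 7 named after their values were seen). Socs1 had a log2 fold change of -0.62 on 32 kPa (limma adjusted p = 0.245) and fell by 1.41 on 0.2 kPa (limma adjusted p = 0.0185). Adam17, a protease that sheds the IL-6 receptor, fell by 1.57 on 32 kPa and by 1.44 on 0.2 kPa.

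Most of the listed regulators of Il6 were lower on the gels, both genes whose products raise Il6 RNA and genes whose products lower it. Of 12 genes that control its transcription or the stability of its RNA, 9 were lower and 1 higher on 32 kPa. On 0.2 kPa 10 were lower and 1 higher. Of all tested genes 41% were lower and 32.4% higher on 32 kPa, and 39.2% lower and 31.9% higher on 0.2 kPa. The higher one was Elavl1, an RNA-stabilising protein named after its values were seen, which rose by 1.71 on 32 kPa and by 1.42 on 0.2 kPa. Nfkbiz, a nuclear cofactor of NF-kB at the Il6 promoter, averaged 39.0 ± 7.48 CPM on 32 kPa and 42.0 ± 3.98 CPM on 0.2 kPa, against 252 ± 38.2 CPM in sham cells (SD, n = 3 each). Zfp36, which speeds the decay of Il6 RNA, fell by 3.51 on 32 kPa and by 3.92 on 0.2 kPa. Zc3h12a, an RNase that cuts it, fell by 0.70 on 32 kPa and by 1.02 on 0.2 kPa.

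Markers of stress and of other cells moved in the same comparison. The 14 immediate-early genes, which respond within minutes to tissue dissociation as well as to cytokines, summed to 643 to 804 CPM on 32 kPa and 610.0 to 759 CPM on 0.2 kPa, against 11005 to 11280 CPM in sham cells. On 32 kPa 12 of the 14 fell and on 0.2 kPa all 14 did, where 41% and 39.2% of all tested genes were lower. The 12 leukocyte markers summed to 13.5 to 14.4 CPM on 32 kPa and 17.0 to 24.1 CPM on 0.2 kPa, against 103 to 200.8 CPM in sham cells. The 10 endothelial markers summed to 12.3 to 13.6 CPM on 32 kPa and 12.3 to 13.7 CPM on 0.2 kPa, against 266 to 286 CPM in sham cells. The 10 epithelial markers summed to 0.699 to 1.69 CPM on 32 kPa and 0.884 to 1.04 CPM on 0.2 kPa, against 107 to 322 CPM in sham cells, with Krt8 and Nkx2-1 at 0 on both gels. The 10 pericyte and smooth muscle markers summed to 203 to 242 CPM on 32 kPa and 219 to 259 CPM on 0.2 kPa, against 717 to 2241 CPM in sham cells, with 8 lower and 1 higher on each gel and Higd1b at 0 on both. The 6 mesothelial markers summed to 4.84 to 5.76 CPM on 32 kPa and 5.57 to 7.80 CPM on 0.2 kPa, against 22.1 to 117 CPM in sham cells, with 5 lower on each gel and Muc16 at 0 on both. The part of these cells and of the dissociation response in the losses of Il6, Socs3 and the receptor chains was not tested.

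**Figure D2:**
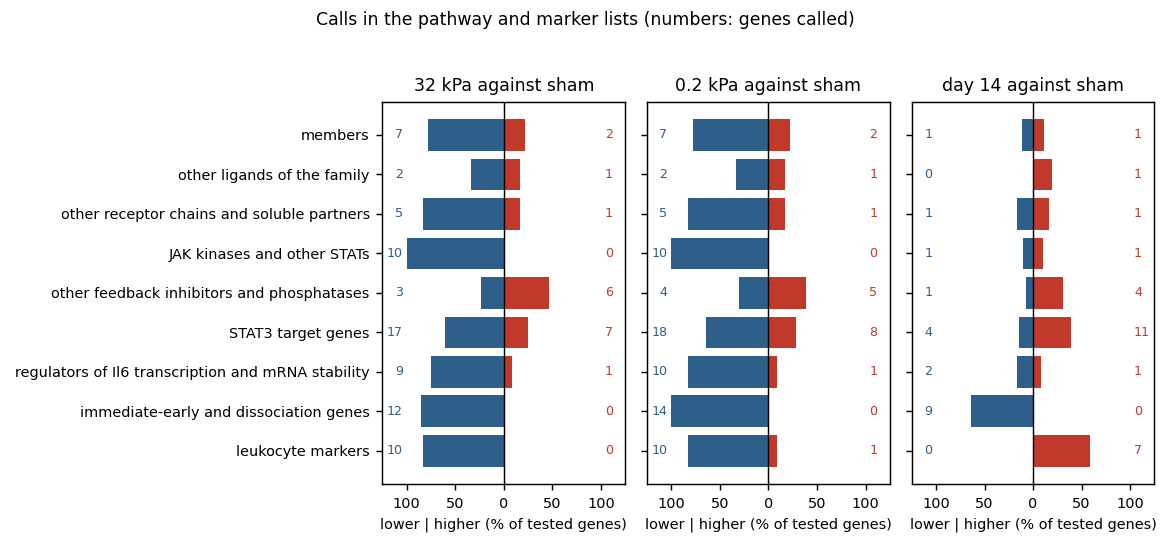
Share of tested genes called lower (left of 0) and higher (right of 0) by limma in the 9 genes and in 8 lists, in percent on the horizontal axis, for 32 kPa, 0.2 kPa and day 14, each against sham. All 10 JAK and STAT genes are lower on both gels, and the immediate-early genes are lower in all 3 comparisons.

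Between the gels none of the 9 genes was called by limma, where 0% of 18480 tested genes were called and 1010 had an unadjusted p under 0.05. By edgeR's quasi-likelihood test on recovered reads 1 gene, 0.00541% of those tested, was lower on 32 kPa, and by DESeq2 39 were lower and 4 higher. Il11 was the one family member whose gel groups did not overlap, and the share of all tested genes without overlap was not counted. Il11 had a log2 fold change of -0.74 ± 0.14 on 32 kPa relative to 0.2 kPa (95% interval -1.04 to -0.44, unadjusted p = 0.000224, limma adjusted p = 0.266). DESeq2 called it (adjusted p = 8.07e-06), edgeR did not (adjusted p = 0.229), and without 32 kPa replicate 3 limma called it (adjusted p = 0.0320). The count over all genes rested on the same library, since without it 338 of 18480 genes were called higher and 511 lower. The authors' deposited table gives Il11 a log2 fold change of -0.75 with an FDR of 2.45e-08 and lists 0.255% of 14880 genes as lower on 32 kPa. For the other 8 genes the 95% intervals all held 0, the widest being that of Il6st (-0.76 to 0.36) and the narrowest that of Stat3 (-0.26 to 0.15).

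**Figure D3:**
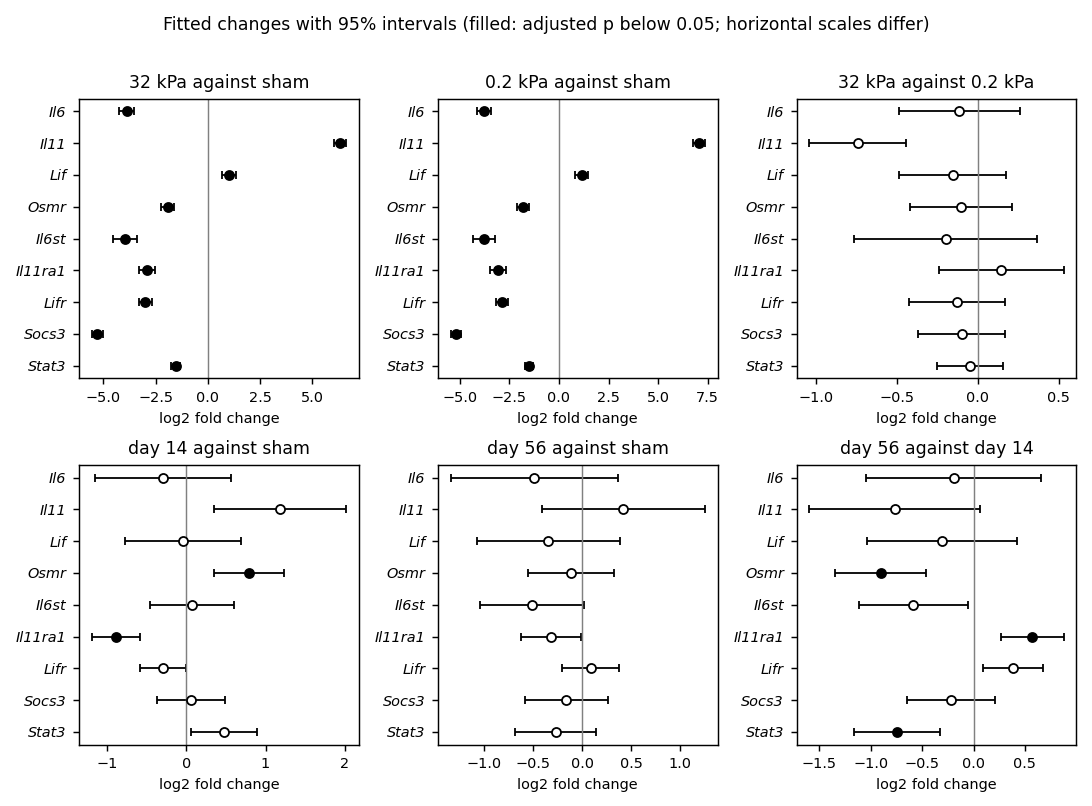
Log2 fold change (horizontal axis, with 95% interval) of each of the 9 genes in 6 comparisons, on horizontal scales that differ between panels. Filled points have a limma adjusted p under 0.05. All points are filled in both comparisons of cultured with sham cells, and none is filled for 32 kPa against 0.2 kPa or for day 56 against sham.

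Chromatin at the family's genes mostly closed in culture. ATAC values are the authors' log2 read concentrations per group, with the difference between groups and an FDR from their DiffBind lists, and no values per library were used. The list of 32 kPa against sham assigned 49 regions to the 9 genes, 43 of them lower, in a list of 58510 regions of which 29.6% were higher. The list of 0.2 kPa against sham assigned 44 regions, 42 of them lower, in a list of 47475 of which 12.1% were higher. The smallest absolute log2 difference was 0.32 in the 32 kPa list but 0.99 in the 0.2 kPa list. Counts and shares of these lists therefore rest on unlike cut-offs. In the other ATAC lists the smallest difference was also 0.99, and a region absent from a list may still differ by less. Of the 44 regions on 0.2 kPa, 97.7% overlapped a family region in the 32 kPa list. Of the 49 on 32 kPa, 87.8% overlapped one in the 0.2 kPa list, both lists resting on the same sham libraries. The overlap of all regions of the lists was not counted, so these shares are not known to be particular to the family. The starts of these lists are uncertain by 1 base, and the nearest RefSeq start assigned their regions to genes.

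A region at the start of each of the 7 lowered genes was less accessible on both gels. Socs3 had a log2 concentration of 7.68 on 32 kPa against 11.01 in sham cells, a difference of -3.33 (FDR 7.21e-128), and of -3.74 on 0.2 kPa. All 8 regions assigned to Socs3 were lower on each gel. At the starts of Lifr, Il6st and Stat3 the differences on 32 kPa were -3.16, -3.14 and -3.10. At those of Osmr, Il11ra1 and Il6 they were -2.64, -2.45 and -1.82. RNA and promoter accessibility were thus both lower for these genes.

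Lif and Il11 were different. Lif RNA rose while all 5 regions assigned to it on 32 kPa were lower. One of them, at -56 bases from a start inside the gene, had a log2 concentration of 4.95 on 32 kPa against 6.37 in sham cells, a difference of -1.42. This is not the start whose promoter was searched for motifs. At that first start of Lif neither gel list held a region, the nearest lying at 1165 bases on 32 kPa and 1417 bases on 0.2 kPa. At Il11 a region overlapping the one printed above was more accessible on 0.2 kPa, at 5.94 against 4.42 in sham cells, a difference of 1.52 (FDR 2.86e-06), while a region inside the gene was less accessible on both gels, with differences of -1.76 on 32 kPa and -1.94 on 0.2 kPa. The 32 kPa list held no region at the start of Il11.

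A few regions opened on the gels. On 32 kPa 4 regions within Osmr introns were more accessible, the largest at 5.79 against 1.90 in sham cells, a difference of 3.89, while Osmr RNA and its promoter region were lower. A distal region at -119633 bases from the Il6 start had 6.15 on 32 kPa against 2.72 in sham cells, a difference of 3.43. A region at -116410 bases from the Lifr start differed by 3.79 on 32 kPa and, in an overlapping form, by 2.85 on 0.2 kPa. That Lifr region and one at 9791 bases from Lif were the only 2 of the family in the list of 32 kPa against 0.2 kPa, both more accessible on 32 kPa by 1.02 and 1.17, in a list of 2558 regions of which 99.7% were higher on 32 kPa.

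**Figure D4:**
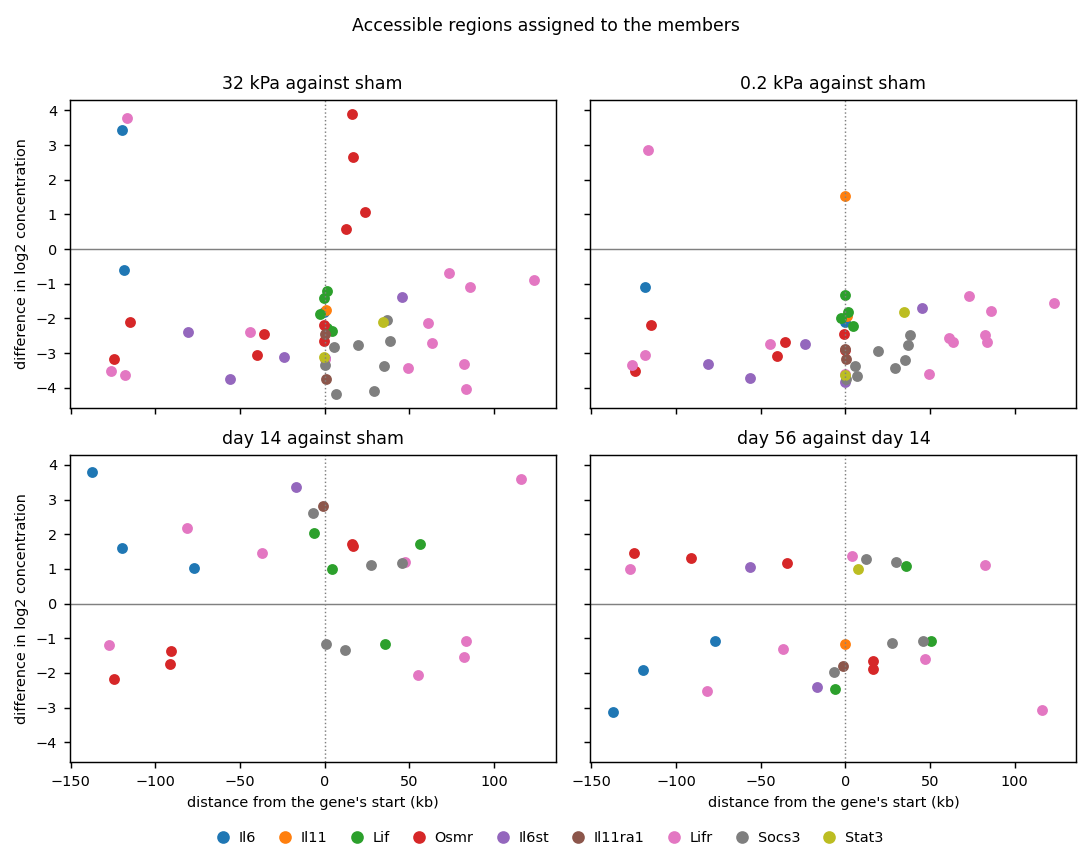
Difference in the authors' log2 read concentration (vertical axis) of each region assigned to the 9 genes against its distance from the gene start in kb (horizontal axis), in 4 ATAC lists. Points near 0 kb are lower on both gels except for Il11 on 0.2 kPa, and on day 14 most points are distal and lie on both sides of 0.

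After bleomycin the family changed far less than in culture. On day 14, 1 of the 9 genes, Osmr, was higher than in sham cells and 1, Il11ra1, was lower by limma with Benjamini-Hochberg adjustment, in a comparison in which 9.57% of 21100 tested genes were higher and 6.36% lower. The median log2 fold change was 0.06 for the 9 genes and 0.05 for all genes. Il6, Lif, Il6st and Socs3 had overlapping groups and limma adjusted p from 0.698 to 0.968. For day 14, too, the share of all tested genes whose groups did not overlap was not counted, so a lack of overlap only describes the genes named.

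**Figure D5:**
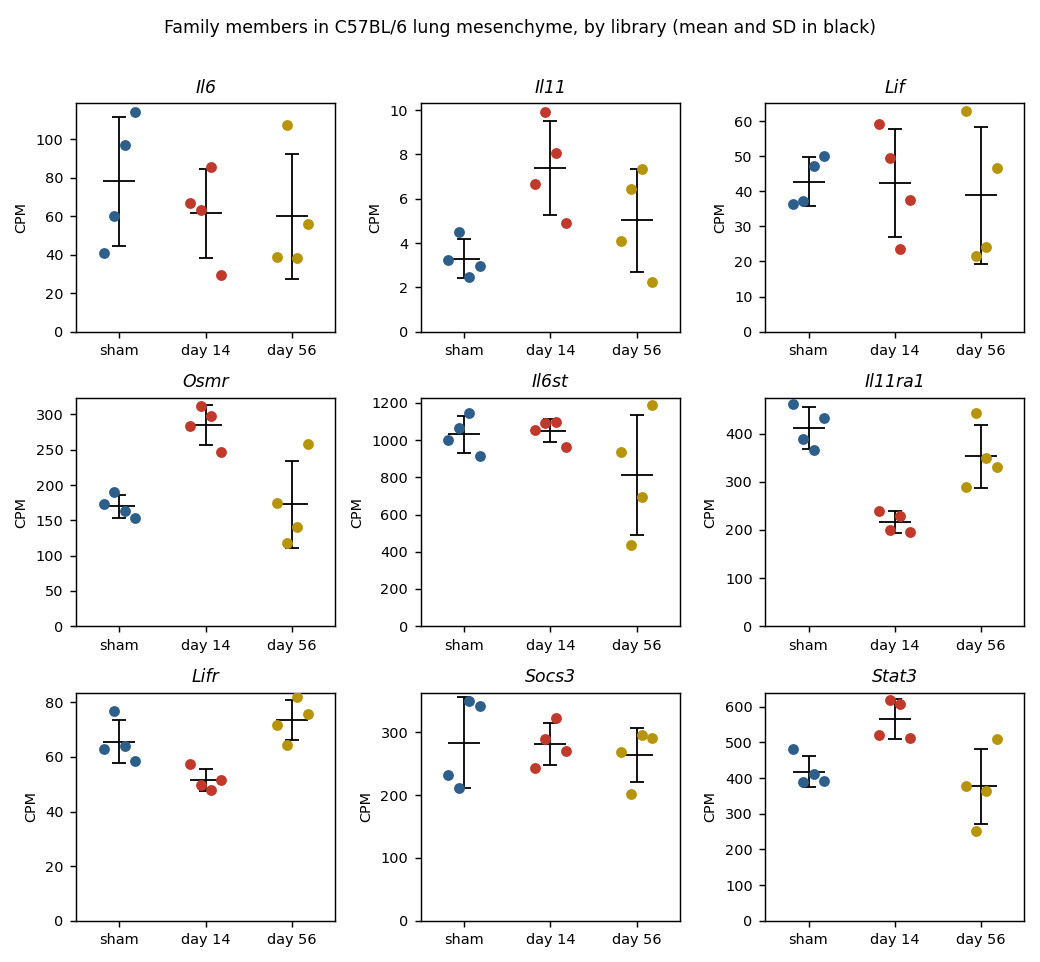
Level of each of the 9 genes in CPM (vertical axis) in every C57BL/6 library, with sham, day 14 and day 56 from left to right in each panel. Points are libraries, and black marks are the mean and SD of 4. Osmr and Stat3 are highest on day 14, and Il11ra1 is lowest there.

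Osmr had 283, 312, 298 and 246 CPM on day 14, against 173, 190.4, 164 and 153 CPM in sham cells. Every day 14 library was above every sham library, and the log2 fold change was 0.79 ± 0.21 (SE, limma adjusted p = 0.0175). The call was lost without sham replicate 4 (adjusted p = 0.0519), day 14 replicate 2 (0.0592) or day 14 replicate 3 (0.0522). Il11ra1 moved the other way, with 240.4, 199.5, 230 and 196 CPM on day 14, against 461, 389, 366 and 432 CPM in sham cells. Its log2 fold change was -0.89 ± 0.14 (limma adjusted p = 0.000779), and it was called whichever single library was left out.

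Il11 had 6.66, 9.92, 8.08 and 4.89 CPM on day 14, against 3.26, 4.51, 2.46 and 2.98 CPM in sham cells. The groups did not overlap, but the log2 fold change of 1.19 ± 0.39 missed the threshold (limma adjusted p = 0.0514). The authors' deposited values give Il11 a log2 fold change of 1.22 with an FDR of 0.000333. edgeR, by which 7.49% of genes were higher, called it (adjusted p = 0.0474), as did DESeq2 (adjusted p = 0.00811). Limma called it without the 4 libraries with fewer genes detected (log2 fold change 1.42, adjusted p = 0.0210), and without day 14 replicate 4 (0.0478) or day 56 replicate 2 (0.0433), 3 (0.0366) or 4 (0.0270). Il11 was low in both groups, at 3.55 RPKM on day 14 and 1.59 RPKM in sham cells, and in the other strain it was 78.8 RPKM on the 32 kPa gel, a level set across tables that were normalized separately.

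Stat3 had 519.9, 619, 608 and 513 CPM on day 14, against 482, 388, 412 and 391 CPM in sham cells. These groups did not overlap either, with a log2 fold change of 0.48 ± 0.19 that was not called (limma adjusted p = 0.116) except with only the libraries of both groups (0.0215) or without day 56 replicate 2 (0.0321), while the authors' deposited table gives 0.47 with an FDR of 0.00696. Socs3 had 243, 290.1, 323 and 270.2 CPM on day 14, against 233, 211, 349.8 and 342 CPM in sham cells, and its log2 fold change was 0.06 (95% interval -0.36 to 0.48). Il6 had 66.9, 63.3, 85.6 and 29.6 CPM on day 14, against 40.7, 60.0, 97.2 and 114 CPM in sham cells, with an interval of -1.15 to 0.56. The day 14 libraries of Il6 lay within the sham range except for the lowest one.

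Il6st had 1055, 1091, 1095 and 960.2 CPM on day 14, against 1001, 1064, 1146 and 913 CPM in sham cells, and per length it stood at 95.7 RPKM on day 14, in a range that overlapped that of Il11ra1 at 86.2 RPKM. Lifr had 57.3, 49.7, 47.8 and 51.7 CPM on day 14, against 62.7, 76.9, 63.8 and 58.6 CPM in sham cells, with a log2 fold change of -0.30 ± 0.14 (limma adjusted p = 0.166), and the groups overlapped after rescaling but not in CPM. Lif had 59.2, 49.6, 23.5 and 37.6 CPM on day 14, against 36.4, 37.2, 47.3 and 50.1 CPM in sham cells. Among the receptor chains, then, Osmr and Il11ra1 moved in opposite directions and gp130 RNA stayed within the sham range in CPM.

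Elsewhere in the pathway, Osm, the ligand of the OSM receptor, rose by 5.10 ± 1.03 on the log2 scale on day 14 (limma adjusted p = 0.00392), to 2.20 to 6.67 CPM, against 0 to 0.629 CPM in sham cells. Oncostatin M is made mainly by leukocytes. The 12 leukocyte markers summed to 591 to 2220 CPM on day 14 against 247 to 377 CPM in sham cells. Of these 12, 7 were higher, beside 9.57% of all tested genes. The part of leukocytes in the Osm level was not tested. Il6ra fell by 1.38 ± 0.32 (limma adjusted p = 0.00817), to 4.19 to 12.9 CPM on day 14 against 16.9 to 24.9 CPM in sham cells.

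Counts from the lists on day 14 stand beside 9.57% higher and 6.36% lower of all tested genes, whose median log2 fold change was 0.05. Of the 28 STAT3 targets 11 were higher and 4 lower on day 14, with a median of 0.10 on the log2 scale. The lower ones were Fos, Junb, Irf1 and Icam1, named after their values were seen. Birc5, the gene of survivin and a marker of dividing cells, rose by 6.43, and Saa3, an acute-phase protein, rose by 6.02, to 158 to 244 CPM on day 14 against 1.32 to 6.72 CPM in sham cells. Cebpb and Cebpd were not called (limma adjusted p = 0.871 and 0.210). Of the 10 JAK and STAT genes Jak3, a kinase of leukocyte receptors, rose by 2.24 and Stat5b fell by 0.93. Of the 13 other inhibitors 4 were higher, led by Ptpn6, which rose by 1.70, and Ptpn1, a phosphatase that acts on JAKs, which rose by 1.11, with Ptpn2 and Ptpn11 behind them, and Pias1 was lower. Of this list Socs1 was not called (limma adjusted p = 0.392). Of the 12 regulators of Il6, Arid5a, which protects Il6 RNA, rose by 1.14, Zfp36 fell by 1.27 and Nfkbia, an NF-kB inhibitor, by 0.73, and Nfkbiz (limma adjusted p = 0.106) and Zc3h12a (limma adjusted p = 0.322) were not called. The immediate-early genes were lower after injury as well, with 9 of 14 called and sums of 2728 to 5167 CPM on day 14 against 7275 to 14100 CPM in sham cells, and their part in these results was not tested.

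By day 56 no family member differed from sham cells by limma. In that comparison 1 of 21100 tested genes was called, 0.00474%, and 1328 had an unadjusted p under 0.05, while edgeR called 1 and DESeq2 54 higher and 26 lower. The 95% intervals of the log2 fold changes differed in width by gene, from -1.34 to 0.37 for Il6 and -0.41 to 1.25 for Il11 to -0.20 to 0.38 for Lifr. Il11ra1 had 289, 443, 349 and 332 CPM on day 56, against 461, 389, 366 and 432 CPM in sham cells, with a log2 fold change of -0.31 ± 0.14 (limma adjusted p = 0.782). Il11 had 4.10, 6.44, 7.35 and 2.23 CPM on day 56, overlapping the sham libraries.

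Between the times, 3 of the 9 genes were called, where 5.71% of tested genes were higher and 8.49% lower on day 56 than on day 14. Il11ra1 rose by 0.57 ± 0.14 (limma adjusted p = 0.0151), and its day 56 libraries were all above the day 14 libraries. Osmr had 174, 118, 140.1 and 257 CPM on day 56, against 283, 312, 298 and 246 CPM on day 14, and fell by 0.90 ± 0.21 (limma adjusted p = 0.00944) with overlapping groups. Stat3 had 379, 252, 365 and 511 CPM on day 56, against 519.9, 619, 608 and 513 CPM on day 14, and fell by 0.75 ± 0.19 (limma adjusted p = 0.0191) without overlap. Day 56 means were 353, 172 and 377 CPM for Il11ra1, Osmr and Stat3, against 412, 169.8 and 418 CPM in sham cells. The comparison shares the day 14 libraries with that of day 14 against sham. How many of all tested genes lacked overlap between the times was not counted.

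These calls did not hold without the libraries with fewer genes detected. Without the 4 such libraries the log2 fold change was 0.42 for Il11ra1 (limma adjusted p = 0.0551), -0.53 for Osmr (0.0732) and -0.46 for Stat3 (0.0784), and none was called, whereas Il11 at -1.34 (0.0280) and Lifr at 0.41 (0.0316) were. Over all genes this setting called more, 1927 higher and 2822 lower of 21100, against 1205 and 1792 with all libraries. Stat3 was also lost without day 14 replicate 2 (0.0665) or replicate 3 (0.0611), with only the libraries of both groups (0.0562), and with a term for the Xist-expressing libraries (0.0751), which were 4 of 4 on day 56 and 2 of 4 on day 14. Il11ra1 was lost without day 14 replicate 2 (0.0551) or replicate 4 (0.0501). The split of all genes moved with the scaling, at 1205 higher and 1792 lower in the limma test, 778 and 3036 with values as deposited, 1260 and 1232 with edgeR, and 1561 and 1026 with edgeR on library totals. As deposited, Il11ra1 was not called (log2 fold change 0.36, adjusted p = 0.0950) and Il6st was (-0.79, adjusted p = 0.0388).

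The remaining members were not called between the times by limma on all libraries. Lifr had 71.5, 64.5, 81.9 and 75.8 CPM on day 56, against 57.3, 49.7, 47.8 and 51.7 CPM on day 14, with no overlap and a log2 fold change of 0.38 ± 0.14 (limma adjusted p = 0.0768). DESeq2, by which 1789 of 18089 genes were higher and 1997 lower, called Lifr (0.39, adjusted p = 0.0247), as did edgeR on library totals (0.51, adjusted p = 0.0280) and limma without day 56 replicate 2 (0.46, adjusted p = 0.0239). Il6st had 933, 437, 694 and 1189 CPM on day 56, against 1055, 1091, 1095 and 960.2 CPM on day 14, and its lowest value was in replicate 2, one of the libraries with fewer genes detected. Limma called it without day 56 replicate 4 (log2 fold change -0.81, adjusted p = 0.0247). Il6, Lif and Socs3 were at 38.0 to 107, 21.7 to 62.9 and 202 to 296 CPM on day 56, ranges that overlapped those of day 14. Outside the family Il6ra rose by 1.28 and Zfp36 rose by 1.11, each in the direction opposite to its change on day 14. Of the STAT3 targets 10 were lower on day 56 and 3 higher, led by Birc5 and by Lrg1, an acute-phase protein, which fell by 7.25 and by 5.91, and the 3 higher ones were Fos, Irf1 and Junb, of which the last pair was named after its values were seen. The immediate-early genes summed to 8294 to 12765 CPM on day 56 against 2728 to 5167 CPM on day 14, with 8 of 14 higher, and the leukocyte markers to 195 to 671 CPM on day 56 against 591 to 2220 CPM on day 14, with 6 of 12 lower. These counts stand beside 5.71% higher and 8.49% lower of all tested genes. The part of the immediate-early genes and of leukocytes in the changes between the times was not tested.

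Chromatin near the family changed in both directions on day 14. The list of day 14 against sham assigned 27 regions to 7 of the 9 genes, 17 more and 10 less accessible, in a list of 25518 of which 67.9% were more accessible. None was assigned to Il11 or Stat3.

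The more accessible regions shared with the 32 kPa gel at Il6 and Osmr, and those with the largest gains at Il6st and Socs3, are shown here with their motif matches, on the plus strand of GRCm38.p6 (mm10). They are an intergenic region far upstream of Il6, chr5:29893393-29893573, the central bases of a region in an intron of Osmr, chr15:6857521-6857820, a second region in that intron, chr15:6857897-6858164, the central bases of an intergenic region upstream of Il6st, chr13:112447244-112447543, and an intergenic region upstream of Socs3, chr11:117976131-117976348. The promoter of Socs3, chr11:117969317-117969616 on the minus strand, is given for comparison because it holds the STAT letters through which STAT3 can act. Capitals mark matches to STAT (TTCNNNGAA), AP-1 (TGANTCA) and TEAD (CATTCC) on either strand, and longer capital runs are matches that overlap or adjoin.
Il6 distal region: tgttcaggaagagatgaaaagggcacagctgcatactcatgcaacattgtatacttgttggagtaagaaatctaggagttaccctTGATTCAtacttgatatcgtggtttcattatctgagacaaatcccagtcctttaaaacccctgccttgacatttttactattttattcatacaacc
Osmr intron region A: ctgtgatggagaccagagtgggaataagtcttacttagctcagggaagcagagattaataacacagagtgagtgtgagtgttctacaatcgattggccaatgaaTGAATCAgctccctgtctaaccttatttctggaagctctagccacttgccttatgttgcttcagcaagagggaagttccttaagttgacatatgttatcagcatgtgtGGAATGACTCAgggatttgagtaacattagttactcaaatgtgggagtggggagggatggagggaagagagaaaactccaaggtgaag
Osmr intron region B: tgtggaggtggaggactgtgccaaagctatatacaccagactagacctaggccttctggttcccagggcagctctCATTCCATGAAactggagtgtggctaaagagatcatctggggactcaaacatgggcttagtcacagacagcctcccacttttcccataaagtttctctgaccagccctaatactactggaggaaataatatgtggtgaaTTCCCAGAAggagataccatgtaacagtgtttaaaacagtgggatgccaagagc
Il6st upstream region: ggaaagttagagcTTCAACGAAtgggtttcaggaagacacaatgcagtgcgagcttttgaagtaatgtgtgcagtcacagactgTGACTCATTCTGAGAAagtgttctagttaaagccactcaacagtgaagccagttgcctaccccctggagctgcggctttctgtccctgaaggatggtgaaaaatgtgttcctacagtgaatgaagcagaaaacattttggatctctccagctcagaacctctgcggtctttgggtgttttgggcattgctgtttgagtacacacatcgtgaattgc
Socs3 upstream region: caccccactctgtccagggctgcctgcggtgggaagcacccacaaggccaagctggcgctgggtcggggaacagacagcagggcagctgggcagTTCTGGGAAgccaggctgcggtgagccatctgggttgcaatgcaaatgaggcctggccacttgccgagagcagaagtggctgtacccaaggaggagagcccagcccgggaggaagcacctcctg
Socs3 promoter: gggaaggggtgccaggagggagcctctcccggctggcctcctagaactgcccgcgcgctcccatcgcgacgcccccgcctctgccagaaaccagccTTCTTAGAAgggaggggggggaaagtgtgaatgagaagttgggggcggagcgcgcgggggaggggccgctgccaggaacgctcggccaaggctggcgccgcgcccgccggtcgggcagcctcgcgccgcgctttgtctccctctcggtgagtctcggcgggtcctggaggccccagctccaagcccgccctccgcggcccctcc

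The Il6 distal region held 1 AP-1 match, letters found in 32.9% of the 25518 windows of this length centred on the regions of the list. Osmr region A held 2 AP-1 matches (38.8% of windows of its length) and 1 TEAD match (23.7%) overlapping one of them, and region B held 2 STAT matches (10.3%) and 1 TEAD match (21.9%) overlapping one of these. The Il6st region held 2 STAT matches (11.5%), one of which directly follows its AP-1 match (38.8%) with no shared base, and the Socs3 upstream region 1 STAT match (8.37%). The Socs3 promoter also held 1 STAT match, as did 8.3% of all promoter windows, and among the promoter windows of the 9 genes it was the only one with these letters. The region with the largest gain at Il11ra1, at -1077 bases, was picked in the same way and is not printed. It held 0 matches to the STAT, AP-1, TEAD, CRE and NF-kB letters.

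The Il6st region, at -16676 bases from the start, had a log2 concentration of 7.64 on day 14 against 4.29 in sham cells, a difference of 3.35 (FDR 1.68e-40), while Il6st RNA was within its sham range. The Socs3 upstream region, at -6873 bases, had 5.83 on day 14 against 3.22 in sham cells, a difference of 2.61 (FDR 1.44e-14), and Socs3 RNA was not called. At Il6 all 3 regions opened, and the one at -137453 bases had 5.08 on day 14 against 1.27 in sham cells, a difference of 3.81. Socs3 had 2 further more accessible regions, at 27493 and 45855 bases, and 2 less accessible ones. At 12131 bases it had 7.20 on day 14 against 8.55 in sham cells, a difference of -1.35 (FDR 6.53e-17), and in its intron at 926 bases the difference was -1.15 (FDR 3.14e-13). Regions of Il6 and Il6st thus opened, and those of Socs3 changed in both directions, without a called change in the RNA of these genes.

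At Osmr the pair of intron regions printed above differed by 1.66 and 1.72 on day 14 and Osmr RNA was higher, while on 32 kPa overlapping regions differed by 2.66 and 3.89 and the RNA was lower. Another 3 regions upstream of Osmr, at -90552, -91306 and -124536 bases, were less accessible on day 14. At Il11ra1 a region at -1077 bases had 6.78 on day 14 against 3.95 in sham cells, a difference of 2.83 (FDR 4.65e-22), while Il11ra1 RNA was lower. On day 14 Osmr RNA therefore moved the same way as the pair of intron regions and opposite to the 3 upstream regions. Il11ra1 RNA moved opposite to the region at -1077 bases, which the authors' annotation places at the end of a transcript.

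Lifr had the most regions, 8, of which 4 were more accessible. The widest difference was 3.58, for a region at 116238 bases inside an intron of the neighbouring gene Egflam, with 5.61 on day 14 against 2.03 in sham cells. Lif had 3 more accessible regions and 1 less accessible, the first at -6127 bases with 6.03 on day 14 against 4 in sham cells. Of the 27 regions, 6 (22.2%) overlapped a family region of the 32 kPa list, which is 12.2% of its 49, and 3 (11.1%) one of the 0.2 kPa list, which is 6.82% of its 44, and all had the same sign. These lists come from different strains and share no libraries. The overlap and the shared signs of all regions of these lists were not counted, so these shares only describe the family regions.

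The list of day 56 against sham held only 2 family regions, both less accessible on day 56 and assigned to Lifr. Of the 1510 regions of that list 60.1% were more accessible. The list of day 56 against day 14 held 28 family regions, 11 more and 17 less accessible on day 56, in a list of 21413 of which 26.3% were more accessible. The Il6st region at -16676 bases had 5.24 on day 56 against 7.64 on day 14, a difference of -2.40, and the Socs3 upstream region differed by -1.97. The Il11 region printed above, absent from the day 14 against sham list, had 6.09 on day 56 against 7.24 on day 14, a difference of -1.15 (FDR 1.76e-07). Of the 27 regions of day 14 against sham, 77.8% overlapped one of these 28 regions (75% of them), with 0 of the same sign. Both lists use the day 14 libraries. The same shares over all regions of these lists were not counted.

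Across the 21 RNA libraries of both strains, centred within each table, the genes most like Il6, Lif and Socs3 were looked for among 13758 genes by Pearson's r of log2 levels. The libraries share their groups and the contrast of culture with sham so r describes these libraries only. Il6 was most like Tnfaip6 (r = 0.966), Nucb2 (0.964) and Ly6i (0.960), and Socs3 most like Thbs3 (0.993), Col6a2 (0.993) and Col6a1 (0.991). The highest values for Lif were lower, for Vps18 (0.845), Kat7 (0.833) and Poldip3 (0.828).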

How the data were processed

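The family's genes, the lists and the tests were chosen with earlier results of these data known. The submitters' processing notes name HISAT2, featureCounts, DESeq2, Bowtie2, MACS2, DiffBind, HOMER and the build mm10, without versions here, and the sources used here do not state the strand setting. The RNA tables hold a normalized signal for each gene in each library, as deposited by the authors, from which whole reads were recovered (100% of values whole within 0.05 reads). Each comparison also has a deposited log2 fold and adjusted p-value, per the file headers, and the ATAC lists give a log2 concentration per group, their log2 difference and a p-value with FDR. Of 27178 CD1 rows, 855 without a symbol (2.13 to 4.77% of reads) were left out.

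Values were rescaled by 1 median-of-ratios factor per library and tested as log2(value + 1) in 1 limma 3.58.1 fit per table (R 4.3.3), two-sided, with Benjamini-Hochberg adjustment at 0.05 over genes whose mean rescaled value was 1 or more. edgeR 4.0.16 and DESeq2 1.42.0 on recovered reads were alternatives, as were deposited values, other pseudocounts and filters, a replicate block and the omission of libraries. Scripts were tested on simulated data. ATAC lists without gene names (both gels against sham) were assigned by the nearest RefSeq start, which gave the deposited gene name for 92.3 to 94% of regions in the other lists, and 1 base was added to their starts. Each comparison covered every one of the 9 genes. Of the other lists, the plan allowed naming the 2 called genes with the largest change, plus Il6ra, Osm, Socs1, Cebpb, Cebpd, Nfkbiz and Zc3h12a. Not every list and comparison has its 2 genes named, and some further genes were named after their values were seen. Sequences are from RefSeq (GRCm38.p6), where all 9 genes had promoter entries. No protein sequence was used here. Some genes of these lists are not reported here.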

Additional observations from a re-analysis of the deposited data

Results flagged for a closer look

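In each C57BL/6 group of 4, the 9 genes were searched for a library apart from the others by Dixon's test, and 0 of 27 sets were past the 95% limit.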

How the results depend on the processing

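All 9 calls in culture held on both gels under every alternative. Between the gels 0 genes were called, but 1 (Il11) with DESeq2, and 0 to 1 with a library left out. On day 14 the 2 calls against sham became 4 with only the libraries of the 2 groups, and 1 to 4 with a library left out. On day 56 the count against sham was 0 throughout and the 3 calls against day 14 ranged from 1 to 4 with a library left out. The 2 ATAC regions of day 56 against sham became 0 at an FDR of at most 0.01.

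Same-numbered replicates did not deviate together (correlations of -0.25 to 0.12 in CD1 and -0.19 to 0.14 in C57BL/6). Differently numbered pairs in CD1 reached -0.26 and 0.26. With groups of 3 or 4 libraries this cannot exclude that same-numbered replicates share an animal or preparation. A replicate block gave 9, 9, 0, 3, 0 and 3 calls for the comparisons 32 kPa and 0.2 kPa with sham, 32 kPa with 0.2 kPa, day 14 and day 56 with sham, and day 56 with day 14, and changed only Il11 on day 14 (log2 fold change 1.19, limma adjusted p = 0.0441).

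Signs reversed only for genes not called. Against sham on day 14, Lif was 0.028 with DESeq2, and Socs3 was -0.0060 with edgeR, -0.011 with library totals and -0.28 without the 4 libraries with fewer genes detected. Against sham on day 56, without those 4 libraries Lif was 0.072, Osmr 0.34 and Stat3 0.051, Osmr was 0.023 with library totals, Lifr was -0.13 as deposited and -0.034 with a term for Xist, and Socs3 was 0.10 with that term. Lif was 0.33 for day 56 against day 14 without the 4 libraries. With a library left out, the ranges that crossed 0 were -0.22 to 0.020 for Osmr between the gels, -0.56 to 0.031 for Il6, -0.22 to 0.22 for Lif and -0.087 to 0.19 for Socs3 on day 14 against sham, -0.34 to 0.062 for Osmr on day 56 against sham, and -0.52 to 0.0072 for Il6 on day 56 against day 14. The cause was not tested. Scaling moved the median log2 fold change of all genes by over 0.1 in 4 comparisons. With library totals it was -0.11 for 32 kPa against sham (otherwise -0.26), -0.04 for 0.2 kPa against sham (otherwise -0.22) and 0.12 for day 56 against day 14 (otherwise -0.08), and as deposited it was -0.27 there and -0.22 for day 56 against sham (otherwise -0.02). At 2.23 to 9.92 CPM, Il11 in C57BL/6 rests on the fewest reads of the 9 genes.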
